A study of Sus scrofa with 80 samples.

Results

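Gene expression in the hypothalamus (HYPO) and the adenohypophysis (AHYP, the anterior lobe of the pituitary) was compared with that in the thyroid gland (THYG) and in backfat (FATB, subcutaneous adipose tissue) of the same pigs. The members are the genes that were higher, or lower, in both HYPO and AHYP than in both THYG and FATB. They were chosen from differences taken within each of 16 animals, on 64 of the 80 arrays of the series, since the gonads were not part of the comparison. Each tissue had 1 array per animal. The animals were untreated piglets of 4 breeds with 4 animals each, Large White, Duroc, Youli and Iberian, and numbered 9 males and 7 females. Youli had 3 males and 1 female and each other breed had 2 of each sex. Breed means at slaughter were 87 days and 27.2 kg in Large White, 83 days and 23.1 kg in Duroc, 80 days and 18.9 kg in Youli and 89 days and 17.4 kg in Iberian. The pigs had been bought at weaning, at about 1 month, kept together on the same feed for 2 months, fasted for 24 h and euthanised with sodium thiobarbital, and tissues were frozen at most 25 min later. Breed therefore goes together with age and weight, and their effects cannot be told apart. The pigs came from several breeding companies, and the company of each breed is not stated, so supplier may also go together with breed. The hypothalamus was dissected with the mamillary body and the grey tubercle but without the optic chiasm, and the adenohypophysis was freed of the neurohypophysis.

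Neurons and the hormone cells of the anterior pituitary both release their products by regulated exocytosis. Transmitters are kept in small synaptic vesicles and peptides in dense-core granules, in which prohormones are cut by dedicated convertases, and both kinds of vesicle fuse with the membrane through SNARE proteins when calcium enters through voltage-gated channels. The thyroid follicle, in contrast, stores its hormone outside the cell as colloid, while fat tissue is built of adipocytes, fibroblasts and vessels held in a collagen matrix. The thyroid gland also holds scattered C cells, which are endocrine cells that secrete calcitonin from granules.

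Values are log2 signals of the GeneChip Porcine Genome array after GCRMA normalization, and a difference of 1 log2 is a 2-fold change. A probeset or gene was called shared when limma gave an adjusted p under 0.05 with the same sign in each of the 4 pairs, HYPO minus THYG, HYPO minus FATB, AHYP minus THYG and AHYP minus FATB. The size given for a gene is the smallest of its 4 mean differences. An adjusted p given for a member in one of these pairs is part of the rule that chose it, not separate support. A tissue with a mean under 3 log2 is called near background, and a difference against it is a lower bound. The labelled tissues matched their markers in general. The summed level of 15 pituitary hormone genes was between 17.10 and 17.54 log2 on all AHYP arrays and had a median of 6.83 in HYPO, 6.82 in THYG and 6.98 in FATB. That of 10 thyroid genes was between 14.57 and 15.23 log2 in THYG and at most 8.76 elsewhere, and that of 29 adipocyte genes between 15.21 and 17.16 log2 in FATB and at most 14.70 elsewhere. However, 7 arrays of 4 animals stood more than 1.5 log2 above the median of their tissue for the pituitary hormone genes. These were HYPO of Duroc female 13 (10.77), Iberian male 24 (9.21) and Youli male 19 (12.49), THYG of Duroc female 13 (8.71), Youli male 19 (12.49) and Youli male 20 (15.58), and FATB of Youli male 20 (8.99). Similarly, 5 FATB arrays stood apart in the summed level of 24 striated muscle genes, with Youli male 19 at 18.19, Duroc male 12 at 13.63, Duroc female 14 at 13.45, Large White female 6 at 10.63 and Iberian female 22 at 9.37 against a median of 7.65 log2. In 11 of 16 thyroid arrays the title of the sample disagreed with its breed or sex field, and the animal was taken from the title. In bulk tissue, fewer cells of a type and less RNA per cell cannot be told apart.

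Of 23999 probesets, 2480 (10.3%) were higher in HYPO and AHYP than in THYG and FATB and 2796 (11.7%) were lower. With a smallest difference of at least 2-fold, 981 probesets (4.09%) were higher and 801 (3.34%) lower. A single gene symbol was attached to 371 of the 981 higher and to 440 of the 801 lower probesets, whereas 603 and 354 had none and are not named here. By gene, 798 of 6765 (11.8%) were higher and 1055 (15.6%) were lower, and 275 (4.07%) and 350 (5.17%), respectively, passed the 2-fold limit. At that limit NDFIP1 lay just inside the higher genes at 1.000 log2 and DCTN5 just outside at 0.999, while CXCL12 was just inside the lower genes at -1.003 and SYPL1 just outside at -0.998. Without the 4 animals that stood apart in pituitary hormones, 275 higher genes were counted, 267 of them in common with the full set, and 353 lower, 337 in common. Without the 5 animals that stood apart in striated muscle genes, the counts were 272, with 262 in common, and 345, with 329 in common.

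**Figure D1:**
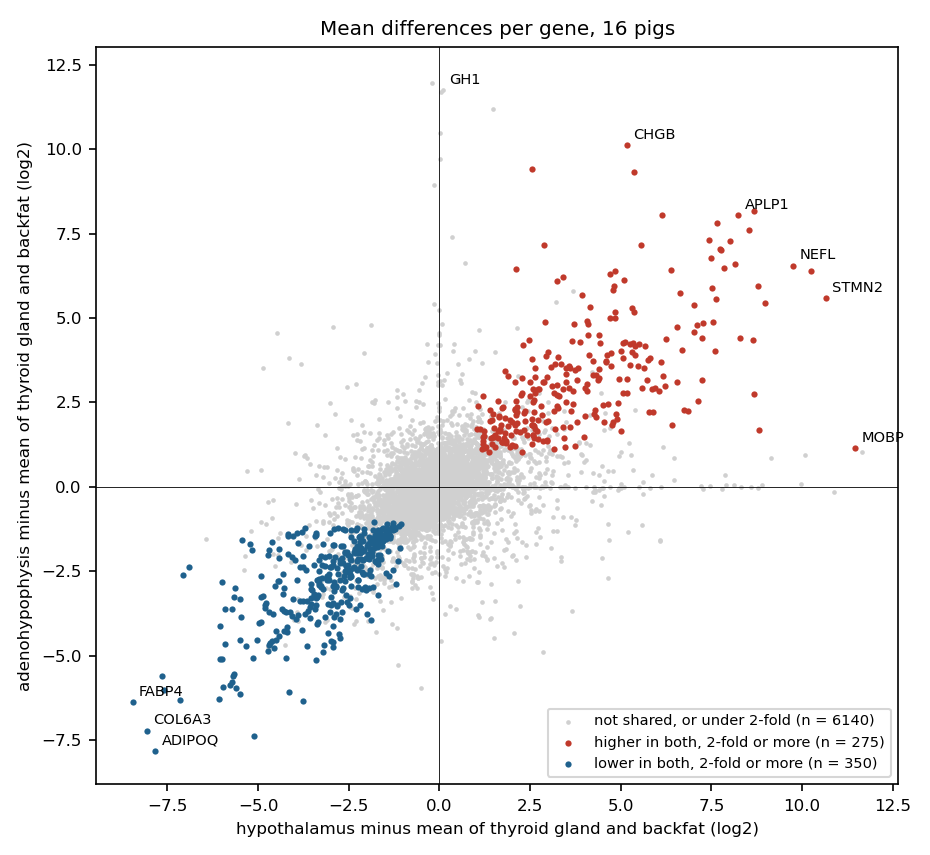
Each point is one of 6765 genes. The horizontal axis gives HYPO minus the mean of THYG and FATB and the vertical axis AHYP minus the same mean, both in log2 and averaged over 16 pigs. The 275 higher genes (red) lie in the upper right and the 350 lower genes (blue) in the lower left, STMN2 and MOBP lie far to the HYPO side and CHGB far to the AHYP side, and the hormone GH1, near the vertical axis, is not a member.

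All 64 within-animal differences, from which the higher genes were chosen, were positive in 227 of the 275 genes. This agreement is therefore largely built in. In 137 genes each of the 4 pairs exceeded 2 log2. The median smallest difference of the 275 genes was 2.0 log2. In 209 genes of any size (3.09% of all genes) the lowest of the 32 HYPO and AHYP arrays was above the highest of the 32 THYG and FATB arrays. Of the 275 genes, 44 were near background in both THYG and FATB, and the others had a signal above it in at least 1 of these tissues.

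SYT1 and NEFL, used as markers of neural and neuroendocrine cells, were both in this set. SYT1 (synaptotagmin 1) is the calcium sensor of synaptic vesicle fusion. Its signal was between 10.47 and 11.83 in HYPO (median 10.84) and between 6.81 and 8.34 in AHYP (median 7.23), whereas it did not exceed 1.91 in THYG or 1.92 in FATB. The groups did not overlap, and the smallest difference of 5.43 ± 0.11 log2 (SE, n = 16 pigs), that of AHYP against FATB, is a lower bound of 43.0-fold. NEFL, the light subunit of neurofilaments, the intermediate filaments of axons, ranged from 11.81 to 12.87 in HYPO (median 12.18) and from 8.26 to 9.69 in AHYP (median 9.06). In THYG it had a median of 2.42 with a maximum of 4.15, and in FATB the maximum was 2.50. Both probesets of each gene were called higher. Both were thus above background in AHYP in all animals, with a HYPO minus AHYP difference of 3.55 log2 for SYT1 and 3.20 log2 for NEFL.

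APLP1, a neuronal relative of the amyloid precursor protein, had the largest smallest difference of all named genes. It ranged from 10.36 to 11.83 in HYPO (median 11.09), from 10.50 to 11.40 in AHYP (median 10.95), from 2.41 to 4.99 in THYG (median 3.16) and from 2.39 to 2.52 in FATB (median 2.43). Its smallest difference, AHYP minus THYG, was 195-fold (7.60 ± 0.20 log2, SE) (limma adjusted p = 1.9e-15), and HYPO and AHYP differed by 0.19 log2 (adjusted p = 0.0855). ENO2, the neuron-specific enolase used in pathology as a marker of neuroendocrine cells, came after LOC100738087, with a smallest difference of 7.14 log2. Its arrays lay between 11.04 and 12.96 in the high tissues and between 3.26 and 5.47 in the low tissues. UCHL1, a ubiquitin hydrolase of neurons and endocrine cells, was less restricted, with a range of 4.27 to 8.75 in THYG and of 1.92 to 7.09 in FATB against at least 11.97 elsewhere. CALCR, the calcitonin receptor, was at 11.52 to 13.45 in HYPO and 7.46 to 10.19 in AHYP and at 3.83 or less on all THYG and FATB arrays, with a smallest difference of 6.34 log2. The genes LOC100738087, LOC100522375 and LOC100621607, which have no assigned name, were also among the 15 largest, at 7.47, 6.94 and 5.58 log2. CAMK2B, a calcium-dependent kinase of synapses, was near background in FATB (median 2.32) except on 1 array at 7.45, that of Youli male 19, which also had the highest level of striated muscle genes. Its smallest difference was 5.77 log2 and 6.0 log2 without that animal.

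**Figure D2:**
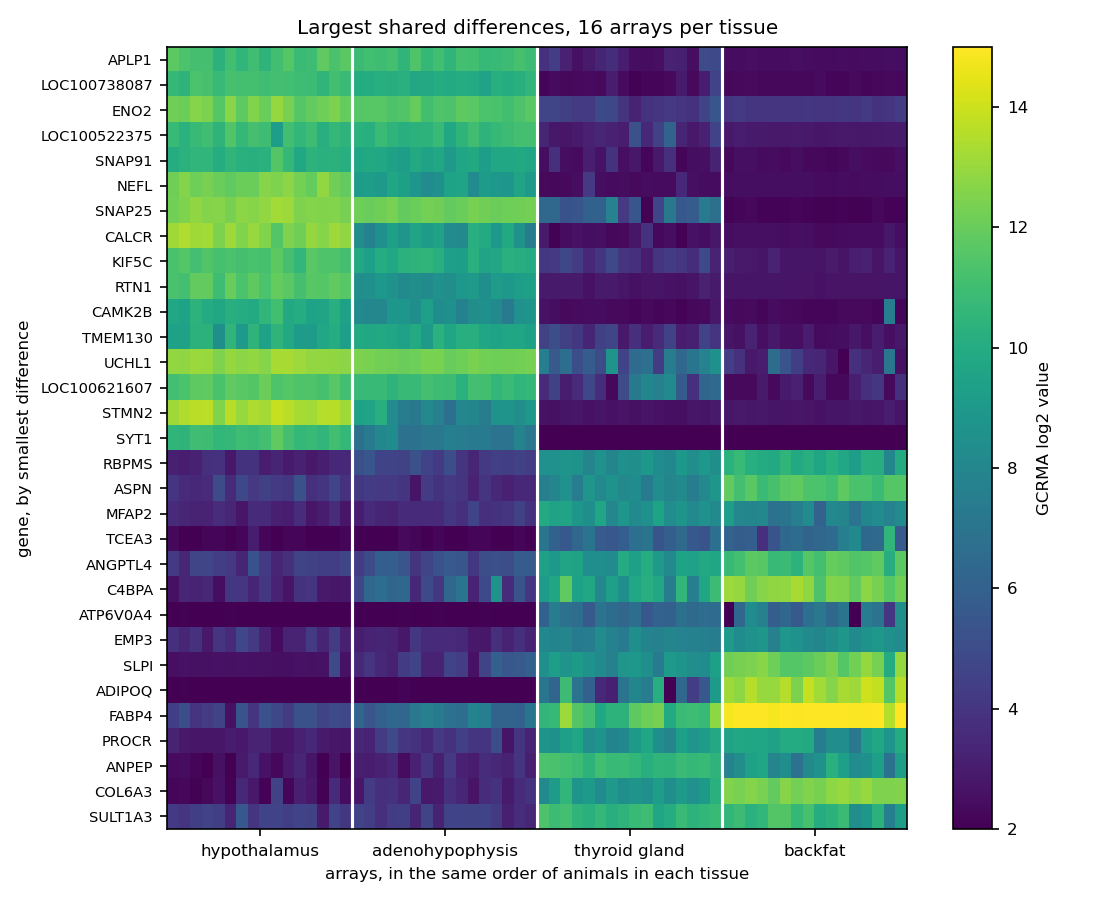
Rows are the 15 higher and 15 lower genes with the largest smallest difference, and SYT1, ordered by that difference, and columns are the 64 arrays, in the same order of animals in each tissue. Colour gives the GCRMA log2 value. The upper 16 rows are bright in HYPO and AHYP, with weaker AHYP signals for STMN2, NEFL, CALCR and SYT1, and SNAP25, UCHL1 and LOC100621607 show intermediate values in THYG. The lower 15 rows show the opposite.

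Genes of the synaptic vesicle and its release machinery were higher in 9 of 16 measured cases (56.2%, beside 11.8% of all genes). The 2-fold limit was passed by 7 of these (43.8%, beside 4.07%), and 1 gene (SYPL1) was lower. The median contrast of the list, HYPO and AHYP minus THYG and FATB, was 2.47 log2, beside -0.06 log2 over all genes. SNAP25 is the SNARE protein of the plasma membrane through which vesicles fuse. It was as high in AHYP (11.86 to 12.37, median 12.15) as to differ from HYPO (12.24 to 13.19, median 12.59) by only 0.51 log2. In THYG it varied widely, from 2.09 to 7.75 with a median of 5.89, while FATB was near background throughout (2.07 to 2.30). SNAP91, a clathrin adaptor that retrieves vesicle membrane, was at 9.03 or more on all HYPO and AHYP arrays and at 3.90 or less on the others. RAB3A, the small GTPase of secretory vesicles, ranged from 10.53 to 11.30 in HYPO, from 7.85 to 8.51 in AHYP, from 2.77 to 5.63 in THYG and from 2.43 to 5.29 in FATB. SYT5, NSF and SYN1 completed the list. Of the 7 genes, 6 were higher in HYPO than in AHYP and none was lower, beside 31.4% and 38.7% of all genes. The summed level of the 16 genes was 13.93 to 14.76 log2 in HYPO and 11.75 to 13.26 in FATB, but 12.81 to 13.25 in AHYP and 12.87 to 13.23 in THYG, so that in total AHYP was not above THYG.

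The reverse balance was found for dense-core granules and prohormone processing. Of 15 measured genes 9 were higher (60.0%, beside 11.8% of all genes) and none lower. The 2-fold limit was passed by 7 of these (46.7%, beside 4.07%). Of the 7, 5 were higher in AHYP than in HYPO, beside 38.7% of all genes. CHGB (chromogranin B, a core protein of the granule) ranged from 14.45 to 14.97 in AHYP, from 9.33 to 10.58 in HYPO, from 2.59 to 10.64 in THYG (median 6.32) and from 2.38 to 3.69 in FATB. HYPO minus AHYP was -4.93 log2, and the THYG arrays overlapped those of HYPO, so that 63 of 64 within-animal differences were positive. The smallest difference, HYPO minus THYG, was 3.18 log2 (limma adjusted p = 1.2e-05). PCSK1, the prohormone convertase that starts the cleavage of POMC, had medians of 9.08 in HYPO, 10.79 in AHYP, 4.67 in THYG and 2.49 in FATB. SCG3, a secretogranin that binds granule cargo to membranes, had medians of 7.81, 8.97, 3.38 and 2.21 in the same order. PCSK1N, an inhibitor of PCSK1, was nearly even between HYPO (median 10.21) and AHYP (median 10.58) and reached 4.71 to 8.25 in THYG. SCG2, RGS4 and SCGN were the other members. For 6 of the 7 genes THYG was above FATB and for none was it below, beside 33.2% and 39.8% of all genes. The summed level of the list was 12.73 to 13.72 log2 in THYG and 10.67 to 11.34 log2 in FATB, compared with 13.32 to 14.10 in HYPO and 15.79 to 16.13 in AHYP.

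Neuronal cytoskeleton and axon growth was the list with the largest share, 19 of 23 measured genes being higher and 16 of them by 2-fold or more (69.6%, beside 4.07% of all genes). All 64 differences, from which the genes were chosen, were positive in each of the 16 genes. Of these genes, 15 were higher in HYPO than in AHYP, beside 31.4% of all genes. STMN2, a microtubule regulator of growing axons, had the widest gap between the high tissues, from 12.54 to 13.84 in HYPO and from 6.74 to 10.18 in AHYP, with at most 2.99 in THYG and FATB. KIF5C, a motor that carries cargo along axons, ranged from 10.62 to 11.71 in HYPO, from 9.26 to 10.53 in AHYP, from 3.06 to 4.89 in THYG and from 2.69 to 3.24 in FATB. RTN1, a reticulon of the endoplasmic reticulum of neuroendocrine cells, had medians of 11.62, 8.62, 2.86 and 2.71. KIF21A, another kinesin, was the exception, with medians of 11.01 in HYPO and 11.02 in AHYP and a smallest difference of 4.91 log2. The remaining genes of 2-fold or more were TAGLN3, MAP1A, GAP43, DCLK1, KIF3A, FEZ1, MAP2, MAPRE3 and STMN1, in addition to ENO2, NEFL and UCHL1.

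**Figure D3:**
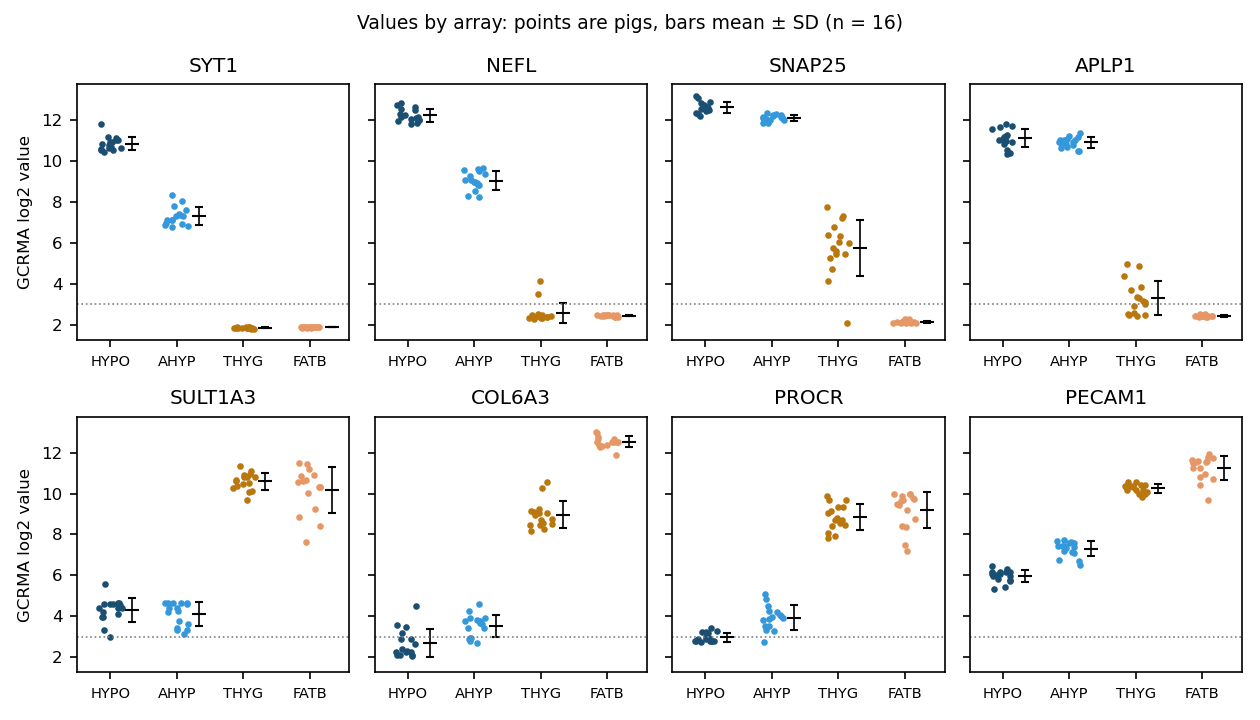
GCRMA log2 values of 8 genes on the 16 arrays of each tissue, one point per pig, with mean ± SD beside them and a dotted line at 3 log2, below which a mean is called near background. SYT1 and NEFL step down from HYPO to AHYP, SNAP25 and APLP1 are nearly level between these tissues, SNAP25 is spread over 2.09 to 7.75 in THYG, and SULT1A3, COL6A3, PROCR and PECAM1 run the other way.

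Among the excitability genes, 5 of 14 voltage-gated channel genes were higher, all by 2-fold or more, and none was lower. This share of 35.7% stands beside 11.8% higher and 4.07% higher by 2-fold among all genes. KCNB2, a delayed rectifier potassium channel, had medians of 6.68 in HYPO and 6.77 in AHYP against 2.20 in THYG and 2.28 in FATB. The potassium channel subunits KCNIP2 and KCNIP4 went in opposite directions between the high tissues, HYPO minus AHYP being -1.18 log2 for KCNIP2 and 2.63 log2 for KCNIP4. CACNB3 and CACNA2D1, auxiliary subunits of calcium channels, were the others, with CACNB3 at 1.32 log2. Receptors for transmitters and neuropeptides hardly contributed. Of 21 measured genes 4 were higher, and CHRNB2, a nicotinic acetylcholine receptor subunit, was the only one past the 2-fold limit (3.43 log2), a share of 4.76% that is close to the 4.07% of all genes. In all 4 tissues 12 of the 21 were near background. DRD2, the dopamine receptor through which prolactin cells are inhibited, was called with a smallest difference of only 0.35 log2, since it was at 3.41 to 8.46 in AHYP (median 7.57) but at a median of 3.03 in HYPO.

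NCAM1 and LRRN3, both neural adhesion proteins, were the only higher genes of 6 measured in that group, both by 2-fold or more (33.3%, beside 4.07% of all genes). The summed level of the 6 genes did not follow them, since its median was lower in AHYP (10.93 to 11.62 log2, median 11.16) than in FATB (11.49 to 12.76, median 12.28), with a median of 12.29 in HYPO and 10.25 in THYG. NCAM1 was called on all 4 of its probesets, with a range of 9.49 to 10.32 in HYPO, 7.84 to 8.48 in AHYP, 3.01 to 6.16 in THYG and 2.85 to 3.80 in FATB. Of 9 transcription and RNA-binding factors of neural and neuroendocrine cells, 5 were higher (55.6%, beside 11.8% of all genes) and 4 passed the 2-fold limit (44.4%, beside 4.07%). CELF4, a splicing regulator, had medians of 9.78 in HYPO, 8.15 in AHYP, 2.97 in THYG and 2.55 in FATB. The imprinted genes PEG3 and NDN were close between HYPO and AHYP, with medians of 10.09 and 10.42 for PEG3 and 9.96 and 10.56 for NDN. They split the low tissues, however, in that PEG3 was higher in THYG (median 6.59) than in FATB (3.85), and NDN higher in FATB (7.98) than in THYG (5.12). ELAVL4, an RNA-binding protein of neurons, was at a median of 8.90 in HYPO but 5.92 in AHYP, and its smallest difference was 1.18 log2.

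Hormones and releasing peptides themselves were mostly not shared. None of the 15 measured pituitary hormone genes was called in either direction. Of 19 hypothalamic neuropeptide and transmitter genes, 3 were higher and only CARTPT, the precursor of the appetite-suppressing CART peptides, passed the 2-fold limit. These shares, 15.8% and 5.26%, are near the 11.8% and 4.07% of all genes, and the 2-fold count was 2 in 6 other settings, among them without either set of animals that stood apart and without Youli male 20. CARTPT ranged from 1.94 to 9.13 in HYPO (median 7.65) and from 2.98 to 7.76 in AHYP (median 6.50) and was near 1.97 in THYG and FATB, with 62 of 64 differences positive. AVP (vasopressin) and GAD2 (the GABA-synthesising enzyme) were called with smallest differences of 0.34 and 0.75 log2. AVP was high in HYPO in most animals (median 10.50), whereas in AHYP it had a median of 1.90 and a maximum of 3.94, so that its call rests on values near background.

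Glial markers were shared in part. Of 22 measured astrocyte and oligodendrocyte genes 6 were called higher (27.3%, beside 11.8% of all genes). CLDN11, S100B and MOBP passed the 2-fold limit (13.6%, beside 4.07%). This 2-fold count was 2 without either set of animals that stood apart, and between 2 and 5 over all settings. S100B, which is made by astrocytes and also by the folliculostellate cells of the adenohypophysis, was at 12.14 to 13.58 in HYPO, at 9.42 to 10.32 in AHYP, at 5.63 to 7.62 in THYG and at 6.57 to 7.83 in FATB. CLDN11, a tight junction protein of myelin, had medians of 13.67, 9.75, 4.64 and 6.40. MOBP, a myelin protein, was at 13.27 to 15.25 in HYPO but at 3.05 to 7.32 in AHYP (median 3.38), against 3.09 to 3.45 in THYG. Its call rests on some AHYP arrays, since 52 of 64 differences were positive, and 2 of its 5 probesets were called. GFAP, the astrocyte filament, reached 13.64 to 14.50 in HYPO and had a median of 3.20 in AHYP. The summed level of the glial list was 16.62 to 17.42 log2 in HYPO, 11.84 to 12.39 in AHYP, 11.96 to 13.28 in THYG and 13.40 to 14.49 in FATB, so that AHYP was not above THYG or FATB in total.

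Across the 275 higher genes, 157 (57.1%) were higher in HYPO than in AHYP and 65 (23.6%) higher in AHYP, beside 31.4% and 38.7% of all genes, and 53 did not differ by the test. The median of HYPO minus AHYP was 0.56 log2, and 148 genes were within 1 log2. Accordingly the smallest of the 4 differences was most often one of AHYP, in 102 genes against THYG and in 84 against FATB. The most even genes were PFKM, KIF21A and DGKE, whose HYPO minus AHYP differences rounded to 0.00, 0.00 and -0.01 log2. PFKM, the muscle form of phosphofructokinase, had medians of 10.04 in HYPO, 9.97 in AHYP, 6.92 in THYG and 5.42 in FATB. Its FATB arrays spread from 2.91 to 13.32, and the highest of them was again that of Youli male 19. DGKE, a diacylglycerol kinase, had medians of 8.34, 8.36, 7.07 and 6.75. Between the low tissues, 117 genes (42.5%) were higher in THYG and 71 (25.8%) higher in FATB, beside 33.2% and 39.8% of all genes.

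**Figure D4:**
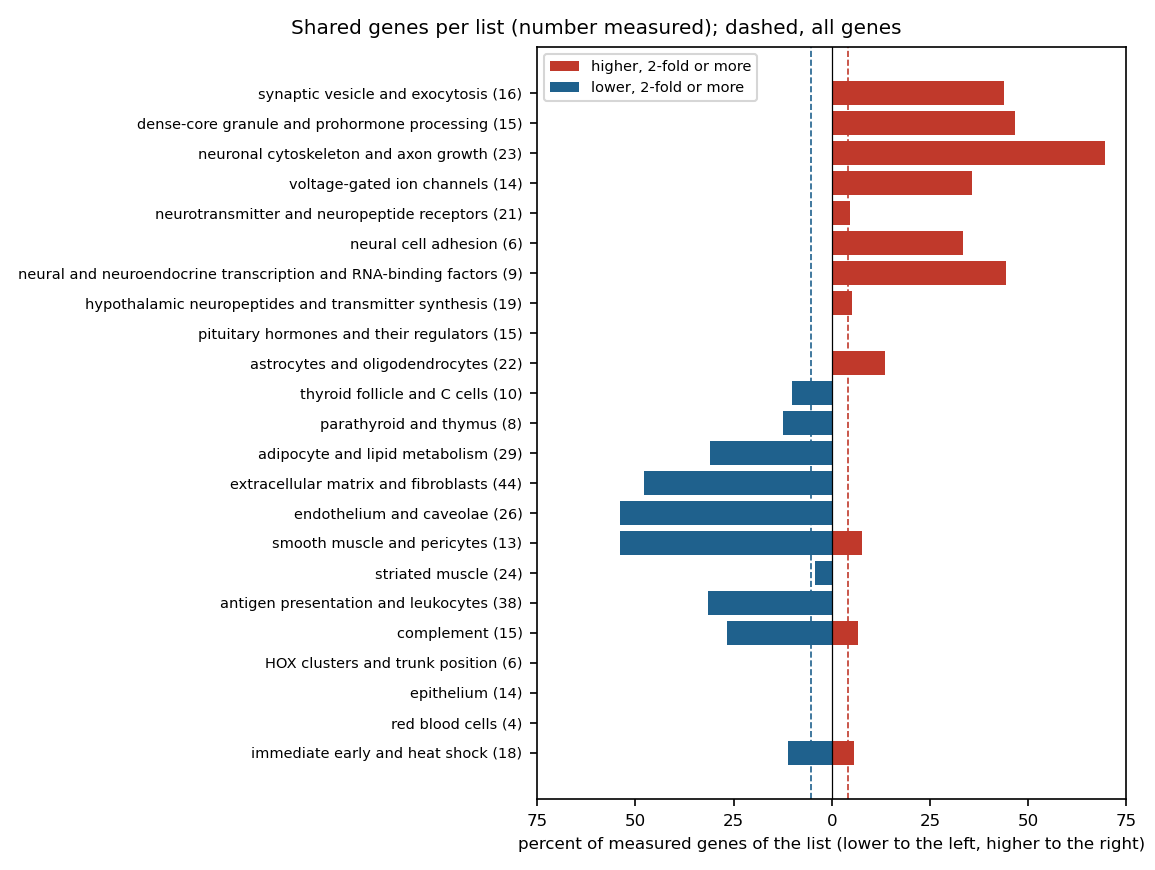
For each list, with the number of measured genes in parentheses, bars give the percent of these genes that were higher (red, to the right) or lower (blue, to the left) by 2-fold or more in HYPO and AHYP than in THYG and FATB. Dashed lines mark 4.07% and 5.17%, the shares among all 6765 genes. Cytoskeletal, granule and vesicle genes extend to the right and matrix, endothelial and smooth muscle genes to the left, while pituitary hormones, HOX, epithelial and red blood cell genes have no bar.

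By gene, the lower set was larger than the higher one, with a smaller median difference. By probeset at 2-fold or more the lower set was the smaller, with 801 against 981, of which 354 and 603 had no symbol. All 64 differences, from which these genes were chosen, were negative in 257 of the 350 genes. In 118 each pair exceeded 2 log2, and the median smallest difference was -1.62 log2. In 185 genes of any size (2.73% of all genes) the highest HYPO or AHYP array was below the lowest THYG or FATB array. Only 40 of the 350 were near background in both HYPO and AHYP.

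SULT1A3, a phenol sulfotransferase, had the largest lower difference. It ranged from 2.96 to 5.6 in HYPO (median 4.40), from 3.13 to 4.66 in AHYP (median 4.34), from 9.69 to 11.35 in THYG (median 10.64) and from 7.62 to 11.52 in FATB (median 10.45), a smallest difference of -5.87 log2 or 58.4-fold (limma adjusted p = 6.5e-11). The mean difference between THYG and FATB was 0.41 log2. ANPEP, the membrane-bound aminopeptidase N, was higher in THYG (10.15 to 11.34) than in FATB (6.85 to 10.24), and remained at or below 4.17 in HYPO and AHYP. PROCR, the protein C receptor of endothelium, was at 2.75 to 5.09 in HYPO and AHYP and at 7.21 or more in THYG and FATB. EMP3, a small membrane protein, had medians of 3.46, 3.33, 7.73 and 8.57 in HYPO, AHYP, THYG and FATB. The protease inhibitor SLPI and the complement regulator C4BPA were highest in FATB, with medians of 12.21 and 12.58, and lower in THYG, with 8.68 and 9.63. C4BPA reached 8.68 on 1 AHYP array and so overlapped with THYG. ATP6V0A4, a proton pump subunit, was near background on all HYPO and AHYP arrays, at 2.09 or less, and had a median of 6.57 in THYG and in FATB, where 2 arrays were at background. TCEA3 and RBPMS, an elongation factor and an RNA-binding protein, were at -4.02 and -3.96 log2.

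Extracellular matrix and fibroblast genes made up the largest block. Of 44 measured, 27 were lower and none higher, 21 by 2-fold or more (47.7%, beside 5.17% of all genes), and the median contrast was -3.16 log2. COL6A3, a chain of collagen VI, ranged from 2.07 to 4.49 in HYPO (median 2.36), from 2.68 to 4.60 in AHYP (median 3.63), from 8.16 to 10.57 in THYG (median 8.85) and was at least 11.89 in FATB (median 12.53). Its smallest difference was -5.43 log2. MFAP2, a protein of elastic microfibrils, was at most 4.59 in HYPO and AHYP and at least 6.10 in THYG and FATB. ASPN (asporin, a small proteoglycan) and NID2 (nidogen 2, of basement membranes) had smallest differences of -3.96 and -3.58 log2, and NID2 was the one of these that was higher in HYPO (median 6.71) than in AHYP (4.25). The others included COL6A2, COL1A2, COL4A2, COL5A1, COL8A1, LUM, DCN, DPT, LOX, FAP, THBS1 and TIMP3. Of the 21 genes, 16 were higher in FATB than in THYG, beside 39.8% of all genes.

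Of 26 endothelial and caveolar genes 15 were lower (57.7%, beside 15.6% of all genes), 14 by 2-fold or more (53.8%, beside 5.17%), and none was higher. Their summed level overlapped between HYPO (12.53 to 13.21 log2) and THYG (12.77 to 13.72), and was 10.84 to 11.63 in AHYP and 13.93 to 15.13 in FATB. PECAM1, an adhesion protein of endothelial junctions, ranged from 5.35 to 6.47 in HYPO, from 6.53 to 7.74 in AHYP, from 9.83 to 10.58 in THYG and from 9.70 to 11.92 in FATB, and the difference of AHYP from THYG, the smallest, was -2.96 log2. ERG, an endothelial transcription factor, had medians of 4.34, 3.42, 7.64 and 7.84, and CAVIN2, a caveolar coat protein, had 6.05, 7.28, 10.49 and 11.30. AQP1, a water channel of capillaries, was near background in HYPO (1.27 to 2.02). Between HYPO and AHYP the 14 genes were balanced, with 5 higher in each, beside 31.4% of all genes higher in HYPO and 38.7% in AHYP. Of 13 smooth muscle and pericyte genes 8 were lower (61.5%, beside 15.6% of all genes), 7 by 2-fold or more (53.8%, beside 5.17%). In total HYPO, at 11.72 to 13.47 log2, overlapped with THYG, at 12.89 to 13.71. ACTG2, smooth muscle gamma actin, was at 5.90 to 7.36 in HYPO and 5.95 to 7.36 in AHYP, and at 10.30 to 11.33 in THYG and 9.21 to 10.80 in FATB. SMTN, MYL9 and TAGLN, which are parts of the contractile apparatus, followed at -2.52, -2.19 and -1.93 log2. DES (desmin) went against the list, with a median of 11.16 in HYPO, 6.83 in AHYP, 5.25 in THYG and 4.0 in FATB, but only 1 of its 2 probesets was called, and the 2-fold limit was not reached in males alone.

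Adipocyte genes were lower in 14 of 29 cases (48.3%, beside 15.6% of all genes), 9 by 2-fold or more (31.0%, beside 5.17%). They include genes that were far higher in FATB than in THYG. FABP4, the fatty acid carrier of adipocytes, ranged from 2.58 to 5.38 in HYPO, from 5.43 to 7.81 in AHYP, from 9.75 to 13.08 in THYG (median 10.92) and from 13.55 to 15.12 in FATB. ADIPOQ (adiponectin) was near 2 on all HYPO and AHYP arrays and at 11.53 to 14.04 in FATB, and in THYG it was between 1.93 and 10.89 with a median of 6.63, so that 62 of 64 differences were negative. LPL, the lipase that releases fatty acids from lipoproteins, had medians of 4.53, 2.24, 6.57 and 12.84, and ANGPTL4, its inhibitor, 4.35, 5.20, 9.44 and 11.51. PLIN2, a coat protein of lipid droplets in many cell types, was the exception, being higher in THYG (median 10.69) than in FATB (7.91). The summed adipocyte level was 13.21 to 14.70 log2 in THYG, 12.86 to 13.79 in HYPO and 12.06 to 12.38 in AHYP, against 15.21 to 17.16 in FATB. ADIPOQ, LPL and FABP4 thus varied by more than 3 log2 among the thyroid arrays, and the part of adipocytes in the thyroid samples in these calls was not tested.

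Of 38 antigen presentation and leukocyte genes 16 were lower (42.1%, beside 15.6% of all genes), 12 by 2-fold or more (31.6%, beside 5.17%). None was higher and 22 were not called. The median contrast of the list was -0.62 log2, and its summed level overlapped among the tissues, with 14.01 to 15.77 log2 in HYPO, 13.87 to 15.16 in AHYP, 14.68 to 15.79 in THYG and 14.71 to 15.78 in FATB. SLA-DQB1, a chain of the swine class II antigen receptor, ranged from 2.95 to 9.34 in HYPO (median 5.57), from 7.35 to 9.57 in AHYP (median 8.60), from 9.53 to 11.30 in THYG and from 9.48 to 11.15 in FATB. CD74, the chaperone of class II molecules, had medians of 8.09, 10.09, 11.87 and 11.66, and SLA-3, a class I molecule, 8.79, 9.48, 11.04 and 10.99. All 64 differences were negative for only 2 of the 12 genes. CXCL9, a chemokine induced by interferon gamma, illustrates this, with a median of 3.48 but a maximum of 10.68 in HYPO. Of 15 complement genes, CFD, SERPING1, C1S and C1R were lower by 2-fold or more (26.7%, beside 5.17% of all genes) and CLU was higher (6.67%, beside 4.07%). CFD (adipsin, made by adipocytes) ranged from 3.89 to 5.34 in HYPO, from 4.30 to 6.47 in AHYP, from 7.52 to 9.42 in THYG and from 10.31 to 11.99 in FATB.

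Of 10 measured thyroid follicle and C cell genes, 4 were lower (40.0%, beside 15.6% of all genes). Only DUOX2, the oxidase that provides peroxide for hormone synthesis, passed the 2-fold limit, beside 5.17% of all genes. It was at 10.59 to 11.79 in THYG, 2.29 to 7.31 in FATB and at most 2.29 in HYPO and AHYP. TSHR, the thyrotropin receptor, was called at -0.04 log2 with FATB near background. Of 6 HOX genes, which mark position along the trunk, 3 were lower and none by 2-fold, with THYG close to background. HOXA3 had medians of 2.24, 2.27, 2.69 and 7.03. Of 8 parathyroid and thymus genes CD8A and CD3E were lower, with CD8A at -1.03 log2, and of 14 epithelial genes only MAL2, at -0.90 log2. One of 24 striated muscle genes was called, TTN at -1.02 log2, and TTN did not reach 2-fold without either set of animals that stood apart. Of 4 red blood cell genes HBB was higher by 0.26 log2, and of 18 immediate early and heat shock genes 4 were higher and 3 lower, with HSPH1 (1.35 log2) the one higher by 2-fold and IER3 and IER2 the ones lower by 2-fold. For the last of these lists the shares, 22.2% higher and 16.7% lower, compare with 11.8% and 15.6% of all genes. The shares lower were 25.0% of the parathyroid and thymus, 7.14% of the epithelial and 4.17% of the striated muscle genes.

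Across the 350 lower genes, 145 (41.4%) were higher in AHYP than in HYPO and 71 (20.3%) higher in HYPO, beside 38.7% and 31.4% of all genes, and 251 were within 1 log2 between these tissues. FATB was above THYG in 201 (57.4%) and THYG above FATB in 67 (19.1%), beside 39.8% and 33.2% of all genes. The most even were AKT2, USP3 and CA3. AKT2, a kinase of the insulin pathway, had medians of 5.63 in HYPO, 5.50 in AHYP, 6.42 in THYG and 8.83 in FATB, and USP3, a deubiquitinase, 4.12, 4.10, 5.77 and 5.54. CA3, a carbonic anhydrase of muscle and adipocytes, was near background in HYPO and AHYP, at 2.64 to 7.30 in THYG and at 6.97 to 12.87 in FATB.

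In each pig the contrast was summarised as the mean of HYPO and AHYP minus the mean of THYG and FATB. Its median over the 275 higher genes ranged from 3.07 to 3.56 log2 among the 16 pigs, and over the 350 lower genes from -3.02 to -2.33. Breeds overlapped for the higher genes, with 3.14 to 3.47 in Large White, 3.22 to 3.56 in Duroc, 3.17 to 3.24 in Youli and 3.07 to 3.43 in Iberian, and so did females (3.19 to 3.47) and males (3.07 to 3.56). The SD of a gene's contrast between animals had a median of 0.46 log2 in the higher and 0.47 log2 in the lower genes, compared with 0.26 log2 over all genes. All genes include those near background in every tissue, where GCRMA compresses the values, so the SDs are not compared at like signal.

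Few contrasts differed between sexes or breeds. With breed as covariate, limma called a sex difference for 8 of 23999 probesets (0.0333%; 1217 at an unadjusted p under 0.05), and with sex as covariate a breed difference for 14 (0.0583%; 2957 unadjusted). Leaving out 1 animal at a time moved these counts to between 5 (without Duroc female 14) and 14 (without Large White female 6) for sex and between 5 (without Duroc male 12) and 49 (without Large White female 6) for breed. Among the members of 2-fold or more, 1 higher probeset was in each group and no lower one. Under 2-fold, a shared lower probeset without a symbol had the smallest adjusted p for sex (limma, 2.5e-06). Its contrast was -1.49 log2 in males and -0.11 in females. Shared probesets under 2-fold, higher and lower, were called for breed as well. TMEM176A, which encodes a transmembrane protein, differed by breed (limma moderated F, adjusted p = 0.0336), a call that was lost in 8 of 16 fits that left out 1 animal (adjusted p up to 0.0864). Its contrast was 3.83 ± 0.26 log2 (SD, n = 4) in Iberian, 2.48 ± 0.19 in Duroc, 1.86 ± 0.51 in Youli and 1.73 ± 0.54 in Large White. Iberian pigs, at 3.48 to 4.09, did not overlap with any other breed. The breeds differed in HYPO and AHYP, and HYPO had a mean of 6.92 in Iberian and 5.40, 4.15 and 4.69 in Duroc, Youli and Large White, while THYG and FATB had breed means between 2.25 and 2.84. GNLY, a protein of cytotoxic granules, and LOC100621607 came next among the 2-fold genes, both with a limma adjusted p of 0.0503. For LOC100621607 the contrast had a mean of 8.04 log2 in Duroc, 7.95 in Iberian, 6.51 in Youli and 6.0 in Large White.

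The 2-fold higher probeset called for sex has no gene symbol either. Its contrast was 3.07 ± 0.17 log2 (SD, n = 7) in females, between 2.77 and 3.28, and 1.64 ± 0.98 (SD, n = 9) in males, between 0.32 and 2.98 (limma adjusted p = 0.0227). The males were split by breed. Youli males were at 2.98, 2.98 and 2.54, at or near the female range, and males of the other breeds between 0.32 and 1.56. The call was kept in 6 of 16 fits that left out 1 animal and was lost without breed as covariate (limma adjusted p = 0.473). The sexes were separated in AHYP, with 6.59 to 8.01 in females and 2.91 to 6.10 in males, and overlapped in HYPO, with 4.63 to 7.74 and 4.14 to 6.71. Among the named genes DES, LY96 and CD8A had the lowest values for sex, with limma adjusted p of 0.594, 0.664 and 0.67. DES, for instance, had a contrast of 5.02 ± 0.83 log2 in females and 4.16 ± 0.66 in males. Both probesets of FSHB, the beta subunit of follicle-stimulating hormone, were also among the 8, with contrasts of 5.79 and 6.04 log2 in females and 3.47 and 3.95 in males, but FSHB was high in AHYP alone and is not a shared gene.

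**Figure D5:**
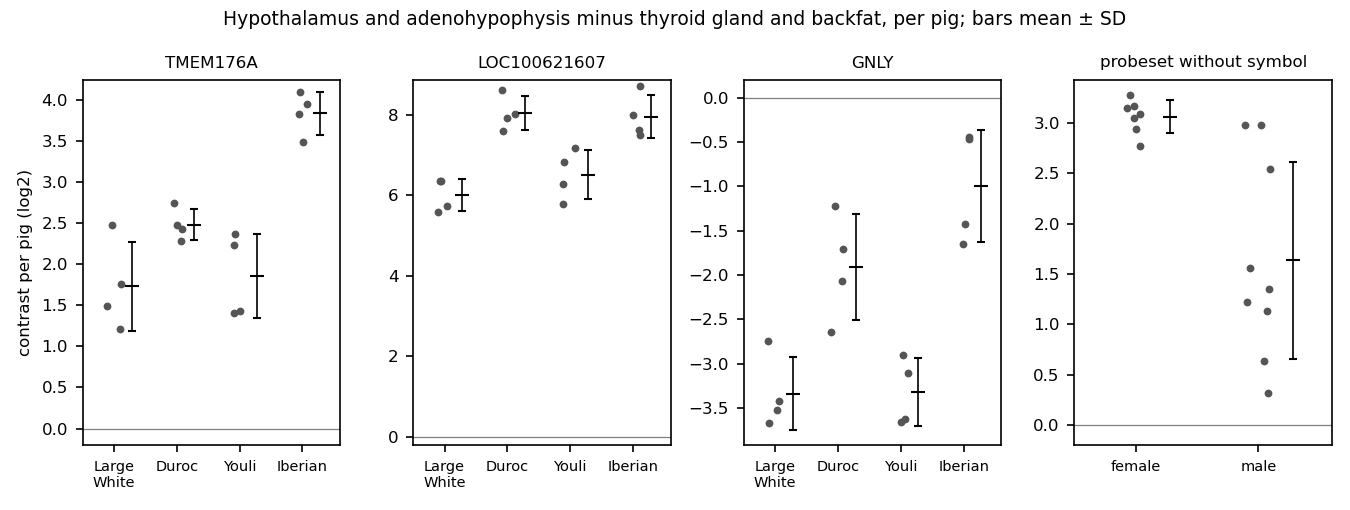
Contrast per pig in log2, the mean of HYPO and AHYP minus the mean of THYG and FATB, with one point per pig and mean ± SD beside the points. The left panels show TMEM176A, LOC100621607 and GNLY by breed (n = 4 each). The right panel shows the 2-fold higher probeset without a symbol by sex (7 females, 9 males). The Iberian points of TMEM176A lie above those of all other breeds, and the female points of the right panel form a narrow group at 2.77 to 3.28.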

How the data were processed

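RNA of 16 pigs was hybridised to the GeneChip Porcine Genome array. The deposited log2 values are those of the authors, who applied GCRMA jointly to every array of the series, a method that corrects background by probe sequence, so that low values are compressed towards a floor. They were used without further transformation. Of 24123 probesets, 124 controls were left out. A single symbol was available for 10069 probesets, several for 198 and none for 13732. Array medians were 4.77 to 4.94 in HYPO, 4.74 to 4.95 in AHYP, 4.80 to 4.95 in THYG and 4.67 to 4.77 in FATB. The number of arrays limits the precision.

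Differences within animals were fitted with limma 3.58.1 (R 4.3.3) for each pair of tissues, with eBayes and two-sided p-values adjusted by Benjamini-Hochberg over 23999 probesets. Arrays were paired by the animal number in the title, and over 200 probesets all 16 arrays of each tissue were nearest to their own animal (mean r of 0.913 in HYPO, 0.954 in AHYP, 0.947 in THYG and 0.913 in FATB). A gene with several probesets, 215 of the 2-fold genes, was represented by the one with the highest mean. All probesets were called in the same direction for 120 of these and 1 was called in the other direction for 2. Only some probesets were called for several genes described above. These were 1 of 2 for KCNB2, ACTG2, AQP1, GAD2, TTN and MAL2, 2 of 3 for SMTN, 2 of 4 for TCEA3 and 1 of 4 for GFAP. Sex and breed were tested on the contrast per pig, each with the other as covariate. The steps were tested on simulated data.

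The genes, lists and tests were chosen with earlier results of these data known. Named were, per direction, the 15 genes with the largest smallest difference and the 3 most even between HYPO and AHYP; up to 4 called genes per list; SYT1 and NEFL; and the 3 lowest adjusted p for sex and for breed. Genes named only to complete a list or to mark the 2-fold limit were chosen after their values were seen, as were FSHB, GH1, CLU, IER2 and IER3. The shared lower probeset given for its sex difference was also chosen after its values were seen. Alternatives changed the pairing, the normalization, the filter, the test, the animals and the choice of probeset. No sequence is shown and a planned search of promoters was not run.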

Additional observations from a re-analysis of the deposited data

Results flagged for a closer look

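The contrast of TMEM176A differed between breeds (limma moderated F, adjusted p = 0.0336). Its means were 3.83 log2 in Iberian, 2.48 in Duroc, 1.86 in Youli and 1.73 in Large White, with 4 pigs each. Leaving out 1 animal at a time gave an adjusted p between 0.0161 and 0.0864, under 0.05 in 8 of 16 cases, and a second probeset of the gene was not called. The contrast of the 2-fold higher probeset without a gene symbol described above differed between the sexes (limma adjusted p = 0.0227), with 3.07 log2 in 7 females and 1.64 in 9 males. Youli males, at 2.54 to 2.98, were near the females, and males of the other breeds were at 0.32 to 1.56. Leaving out 1 animal at a time gave an adjusted p between 0.00068 and 0.0865, under 0.05 in 6 of 16 cases, and without breed as covariate it was 0.473.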

How the results depend on the processing

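Of 102 named genes, 87 kept their call under all 30 settings. Of the 84 with 2-fold or more, 79 did, the exceptions being TTN, CD8A, MOBP, CA3 and CXCL9. No named gene was called in the opposite direction in a setting. Whether the difference of a single pair of tissues changed sign was not tested. One fit with the animal as replicate block gave 2428 higher and 2643 lower probesets, 982 and 802 by 2-fold or more, and 276 and 349 genes; without the replicate block there were 275 and 348 genes. Centring the arrays shifted the median of all probesets by -0.0687 log2 and gave 2249 higher and 3257 lower probesets, and 262 and 372 genes. Requiring that the arrays do not overlap left 649 higher and 394 lower probesets. Requiring 2 log2 left 451 and 261 probesets and 137 and 118 genes. The mean over all probesets of a gene gave 249 and 314 genes. Leaving out 1 animal at a time gave 270 to 280 higher and 341 to 354 lower genes, and the counts moved by under 1.5 times. The 2 sets of animals that stood apart were left out after the data were seen. The counts for sex and breed were less stable. With dim probesets left out, 13 probesets were called for sex and 46 for breed, and without the sex covariate 58 for breed. Leaving out 1 animal gave 5 (Duroc female 14) to 14 (Large White female 6) for sex and 5 (Duroc male 12) to 49 (Large White female 6) for breed. The causes were not tested. Signals near background are bounds, which limits the size of differences for 44 higher and 40 lower genes in both tissues of a side.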
